A study of Homo sapiens with 8 samples.

Results

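The subunits of the 4 respiratory chain complexes and of ATP synthase were followed across C4-2B and NCI-H660 prostate cancer cells in which MYCL had been raised or lowered. Members were the genes whose names in the count table matched a fixed list of subunit names, which gave 90 of 78691 genes. Of these, 13 are encoded by the mitochondrial genome (7 in complex I, 1 in complex III, 3 in complex IV and 2 in complex V) and 77 by the nucleus (37 in complex I, 4 in complex II, 8 in complex III, 11 in complex IV and 17 in complex V, which is ATP synthase). NDUFA4, named after complex I, was counted with complex IV, where its protein is found. CYC1, a complex III subunit, and several tissue-specific isoforms are not matched by these names and are described separately.

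C4-2B, a castration-resistant prostate adenocarcinoma line, was transduced with lentivirus, either empty (control) or with human MYCL behind the EF1A promoter, joined to EGFP by a self-cleaving peptide and with puromycin resistance. NCI-H660, a neuroendocrine prostate cancer line, received a control shRNA (shCtrl) or an shRNA against MYCL (shMYCL). The labels describe the knockdown as adenoviral in one place and as stable in another, so the vector and the time after transduction are left as given. RNA from 2 libraries per group was poly(A)-selected and sequenced as paired-end reads, and only the titles of the C4-2B controls call the replicates biological, so that p-values measure the spread between these libraries, which may be technical. Both lines were grown in RPMI with serum, each arm is 1 cell line, and the lines differ in vector as well as in cell type.

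Oxidative phosphorylation joins products of both genomes. Complex I (NADH dehydrogenase) and complex II (succinate dehydrogenase) pass electrons to ubiquinone, complex III (cytochrome bc1) passes them to cytochrome c, complex IV (cytochrome c oxidase) passes them to oxygen, and ATP synthase uses the resulting proton gradient. The mitochondrial genome encodes hydrophobic core subunits of every complex but complex II. It is transcribed as long precursors that are cut into shorter mRNAs, most of them with short poly(A) tails. The nuclear subunits are transcribed one by one and imported. MYC family proteins bind E-box sequences, and the factors NRF1, GABP and YY1 are known for binding promoters of nuclear respiratory genes.

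The mitochondrial genes share sequence with each other and with the nucleus, which bears on how firmly each can be counted. MT-ATP8 and MT-ATP6 overlap by 46 bases (GRCh38, chrM:8527-8572, plus strand), shown here because a read inside this stretch belongs to both genes, with the start codon of MT-ATP6 in capitals.
MT-ATP8/MT-ATP6 overlap: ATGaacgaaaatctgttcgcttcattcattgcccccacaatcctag
MT-ND4L and MT-ND4 overlap by 7 bases and MT-ATP6 and MT-CO3 by 1. The nuclear copy MTATP6P1 (GRCh38, chromosome 1, 633696 to 634376, plus strand) is identical to MT-ATP6 at 671 of 681 bases, or 98.53%. It held between 2582 and 14161 counts per library. Per count of MT-ATP6 this was from 0.0912 in NCI-H660 shCtrl library 1 to 0.131 in shMYCL library 2. Across the 405 nuclear copies of mitochondrial genes named in the table, counts came to between 0.577% and 0.955% of those of the 13 mitochondrial genes. How the authors' counting divided such reads is not given in the sources used here, so the levels of MT-ATP8 and MT-ATP6 are uncertain.

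Library totals ran from 15177071 to 32344170 counts, and the 2 C4-2B control libraries were deeper than both MYCL libraries of that line. MYCL itself had 371 and 320 counts in C4-2B control and 65524 and 70253 in C4-2B MYCL libraries, and 1863 and 1602 in shCtrl and 165 and 198 in shMYCL libraries, in the direction of each label. The luminal markers KLK3, KLK2 and FOLH1 lay between 211 and 1249 CPM (counts scaled to library size) in C4-2B libraries and at 0 CPM in NCI-H660 libraries, and the neuroendocrine markers INSM1, CHGA and NCAM1 lay at or below 0.25 CPM in C4-2B and between 35.6 and 160.4 CPM in NCI-H660. Of the other markers given here, TMPRSS2 lay between 284.7 and 398.5 CPM in C4-2B and at or below 1.42 CPM in NCI-H660, SYP at or below 2.05 CPM in C4-2B and between 84.9 and 112.9 CPM in NCI-H660, and DLL3 between 9.24 and 10.8 CPM and between 17.5 and 27.01 CPM. Replicates were not repeats of one library, since their counts differed well beyond sampling noise in each group.

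The 13 mitochondrial genes took several times more of each library's counts than the 77 nuclear ones, and more in C4-2B than in NCI-H660. Their share of counts was 7.46% in both C4-2B control libraries and 8.16% and 8.38% in the C4-2B MYCL libraries. In NCI-H660 it was 2.76% and 2.71% with shCtrl and 3.19% and 3.11% with shMYCL. Thus the share was higher in both MYCL-overexpressing libraries than in both controls, and also higher in both MYCL-depleted libraries than in both of theirs. The 95% Wilson interval of each share, for example 7.45 to 7.47 in C4-2B control library 1, covers counting error only.

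The nuclear subunits gave a different order. Their share was 1.27% and 1.28% in C4-2B control and 1.29% and 1.34% in C4-2B MYCL libraries. In NCI-H660 it was 0.658% and 0.689% with shCtrl and 0.649% and 0.614% with shMYCL. The mitochondrial counts per nuclear count were 5.89 and 5.81 in C4-2B control against 6.34 and 6.24 in C4-2B MYCL, and 4.20 and 3.93 in shCtrl against 4.92 and 5.05 in shMYCL. In TPM, which divides by gene length, this ratio was 5.00 and 4.88 against 5.06 and 4.94 in C4-2B, where the groups overlapped, and 3.70 and 3.59 against 4.63 and 4.91 in NCI-H660, where they did not. These sums have no p-value here, and in such bulk samples fewer cells of a kind and less RNA per cell cannot be told apart.

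**Figure D1:**
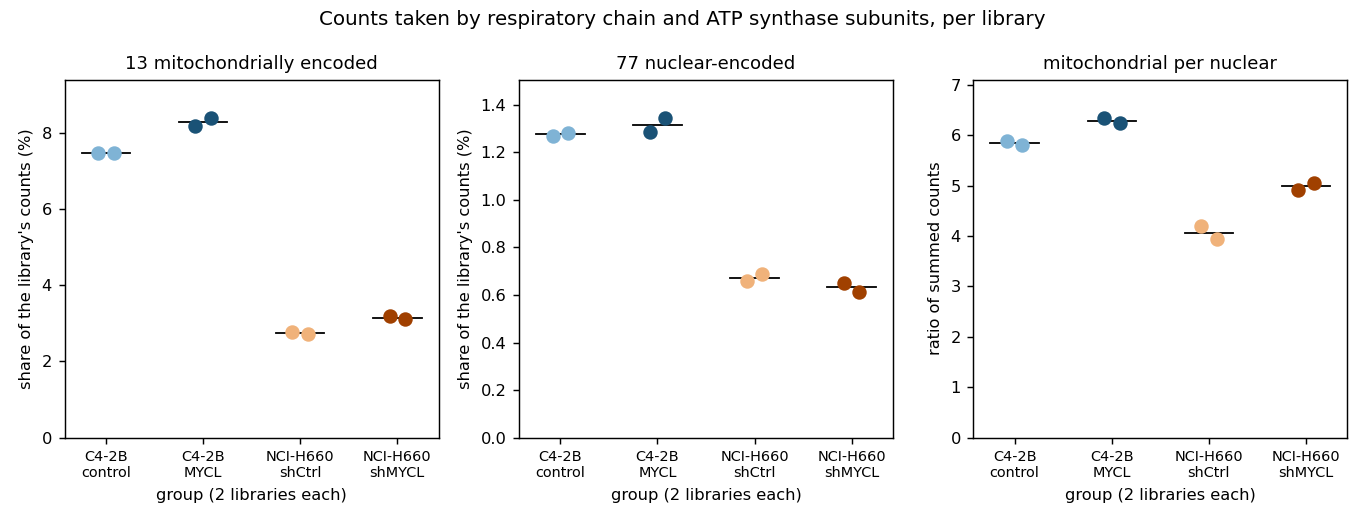
Each point is 1 library and each black line a group mean (n = 2), for the share of counts taken by the 13 mitochondrially encoded subunits (left, %), by the 77 nuclear subunits (middle, %) and for the ratio of their summed counts (right). C4-2B libraries sat at 7.46% to 8.38% for the mitochondrial genes and NCI-H660 libraries at 2.71% to 3.19%.

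Per length, the counts of the mitochondrial genes were far from equal although their transcripts come from shared precursors. In C4-2B control cells the mean TPM ran from 3981 ± 129 (SD, n = 2) for MT-ND5, a proton-pumping subunit of complex I, to 21099 ± 3409 for MT-ND4L, a small complex I subunit. MT-ND4, which overlaps MT-ND4L, had 11912.5 ± 93.8 TPM, and whether MT-ND4L and MT-ND4 were read from the same mRNA was not tested. MT-CO1, the catalytic subunit of complex IV, stood at 20440 ± 382 TPM. In NCI-H660 shCtrl cells MT-CYB, the cytochrome b of complex III, was the lowest at 3127 ± 330 TPM and was not separated from MT-ND5 at 3134 ± 60. MT-ND3, another complex I subunit, was the highest there at 17154 ± 2171 TPM, more than 2 SD above MT-CO2 at 8224 ± 1315. MT-ND6, the only mitochondrial member annotated on the minus strand, had 5799 and 5526 TPM in C4-2B control and 3902 and 3850 TPM in shCtrl libraries. It lies at chrM:14149-14673, next to the end of MT-ND5 at 14148 on the plus strand. Whether the authors' counting kept the strands apart is not given in the sources used here, so the level of MT-ND6 is uncertain. MT-ATP8 could not be placed in this order, since its shCtrl libraries stood far apart (4950 and 10426 TPM with shCtrl).

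The nuclear subunits lay far below. Their mean TPM in C4-2B control ran from 31.4 for NDUFV3 to 1750 for ATP5MK, with a median of 294.8, and in NCI-H660 shCtrl from 12.5 for NDUFV3 to 1777 for COX7A2, with a median of 162.1. The most abundant in C4-2B control were ATP5MK (1750 ± 105 TPM, SD, n = 2), a small membrane subunit of ATP synthase, COX6A1 (1664 ± 56), UQCRB (1441 ± 19) and COX7C (1388 ± 103). Of these, ATP5MK and COX6A1 did not differ beyond their spread, and UQCRB and COX7C overlapped. In NCI-H660 shCtrl the order was COX7A2 (1777 ± 74), UQCRB (1298 ± 117), COX6C (1244 ± 51) and COX6B1 (1068 ± 35), and UQCRB and COX6C overlapped.

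**Figure D2:**
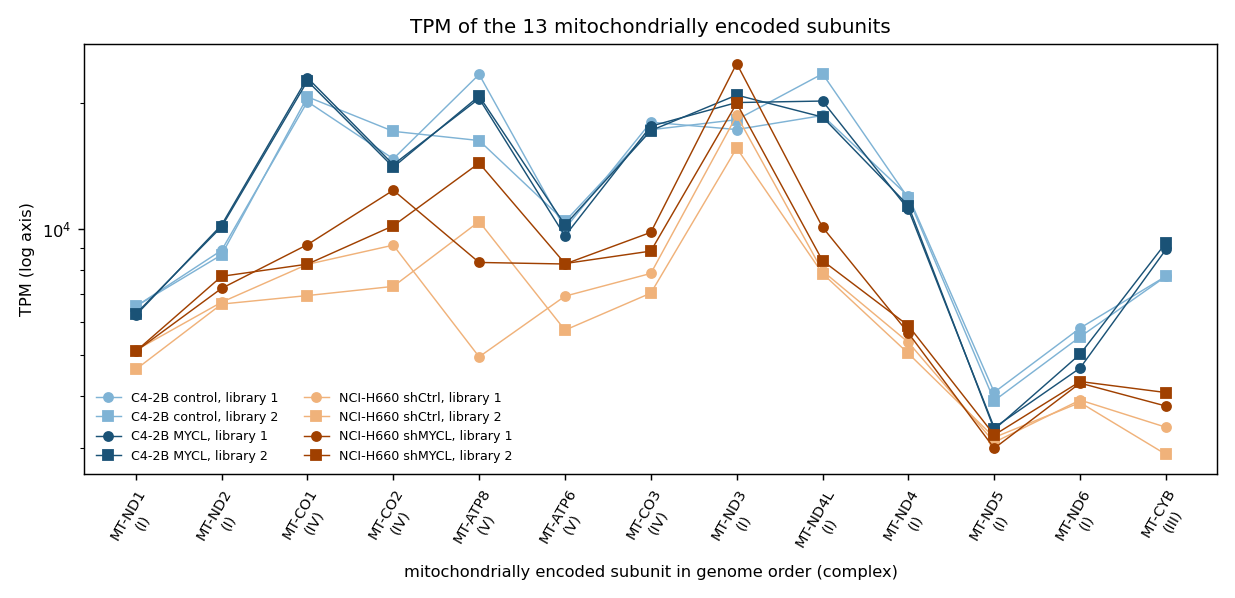
TPM (log axis) of the 13 mitochondrially encoded subunits in genome order, with a line for each of the 8 libraries. The C4-2B libraries lie above the NCI-H660 libraries for most genes and meet them at MT-ND3, and the shMYCL libraries lie above the shCtrl libraries at MT-CYB.

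The first comparison asked how the subunits differed between C4-2B cells with and without introduced MYCL. Complex IV moved most evenly: 8 of its 11 nuclear subunits rose and none fell, with log2 fold changes from 0.26 to 0.59. Over all 77 nuclear subunits 22 rose and 3 fell, with edgeR's quasi-likelihood test over 16866 genes and an adjusted p under 0.05 as the threshold. Of all genes tested, 17.6% were called higher and 17.4% lower, against 28.6% and 3.90% of the nuclear subunits. The median log2 fold change was 0.09 for the nuclear subunits and −0.002 for all genes. Both MYCL libraries lay above both controls for 35 of the 77 nuclear subunits (45.5%), 6 of the 13 mitochondrial genes (46.2%) and 34.5% of all genes. They lay below both controls for 15 (19.5%), 1 (7.69%) and 34.7%. With a log2 fold of at least 0.5 as well, 5 nuclear subunits were higher and 0 lower, against 11.8% and 8.12% of all genes. This split depended on the unit. On log2(TPM + 1) with limma, 9 nuclear subunits were higher and 18 lower while the median of all genes moved to −0.142, and with each library centred on its median, chosen after seeing the data, 17 were higher and 2 lower. With the trend on gene length removed from each library, 13 were higher and 14 lower. The nuclear subunits are short genes, with a median length above that of only 3.75% of the genes tested, and the part that length plays in the counts was not tested.

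Within complex IV, COX7A2, a small subunit of the membrane part, had 141.9 and 131.7 normalised CPM in control and 208.3 and 204.2 in MYCL libraries. Here normalised CPM are CPM after TMM scaling within a cell line, and they are not compared between lines. The groups of COX7A2 did not overlap, and its log2 fold change of 0.59 (SE 0.07, edgeR adjusted p = 4.3e-04) was the highest of the 77. COX6A1 had 382.3 and 352.1 against 498.1 and 577.1 normalised CPM, a log2 fold change of 0.55 (SE 0.09). COX5B, on the matrix side, had 68.01 and 76.08 against 99.05 and 108.3 normalised CPM, a log2 fold change of 0.53 (SE 0.09). In all 3, both MYCL libraries lay above both controls. NDUFA4 had 148.1 and 152.5 against 187.1 and 202.9 normalised CPM and a log2 fold change of 0.38 (SE 0.07). The 3 nuclear complex IV genes that were not called were COX5A (0.14), COX6B1 (0.08) and COX7B (−0.09). Complex IV kept 8 higher and 0 lower under DESeq2 and under the fit of all 4 groups, and had 5 higher and 1 lower with the length trend removed and 4 higher and 1 lower on log2(TPM + 1). It had 4 higher without C4-2B control replicate 1 and 5 without control replicate 2, with none lower in either. The call of COX4I1 was lost in 3 of the 4 fits that left out a library, and those of COX7C and COX8A in 2 each.

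Complex I, which has a few core subunits that carry flavin and iron-sulfur clusters and many supernumerary ones, had 10 of 37 nuclear subunits higher and none lower. The highest were the supernumerary subunits NDUFA13 and NDUFA7 and the core subunit NDUFS7. NDUFA13 had 108.8 and 92.4 normalised CPM in control against 140.5 and 159.4 in MYCL libraries, a log2 fold change of 0.57 (SE 0.10). NDUFA7 had 45.1 and 45.8 against 61.3 and 67.96, a log2 fold change of 0.51 (SE 0.08). NDUFS7, which holds an iron-sulfur cluster near the quinone site, had 41.8 and 40.7 against 48.2 and 62.0, with a log2 fold change of 0.42 (SE 0.12). None of these groups overlapped, but the MYCL libraries of NDUFS7 stood well apart from each other. Among core subunits 2 of 7 were higher, and among supernumerary ones 8 of 30. The complex I calls were 4 higher and 7 lower on log2(TPM + 1) and 6 and 6 with the length trend removed. They were 6 and 0 without C4-2B control replicate 1, 4 and 0 without control replicate 2 and 15 and 0 without MYCL replicate 1. Without MYCL replicate 2 they were 6 and 4, and the median over all nuclear subunits was 0.004 in place of 0.09.

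Complex II showed no calls. Its log2 fold changes were 0.06 for SDHA, the flavoprotein, 0.04 for SDHB, the iron-sulfur protein, and −0.03 and −0.05 for the membrane anchors SDHC and SDHD, with SEs from 0.07 to 0.10. In complex III the small subunits UQCR11 (0.41, SE 0.08) and UQCRQ (0.28, SE 0.08) rose, and UQCRFS1, the Rieske iron-sulfur protein, fell from 152.3 and 155.9 to 123.6 and 131.9 normalised CPM, a log2 fold change of −0.27 (SE 0.07). The core proteins UQCRC1 and UQCRC2 had 0.00 and 0.01.

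ATP synthase had 2 of 17 nuclear subunits higher and 2 lower, 11.8% each against 17.6% and 17.4% of all genes tested. These counts became 0 and 7 on log2(TPM + 1) and 1 and 6 with the length trend removed. Leaving out 1 library gave 0 and 1 (control replicate 1), 1 and 0 (control replicate 2), 4 and 2 (MYCL replicate 1) or 2 and 4 (MYCL replicate 2). The delta subunit ATP5F1D rose from 42.8 and 48.0 to 55.4 and 65.0 normalised CPM, a log2 fold change of 0.41 (SE 0.10). ATP5PB, of the peripheral stalk, fell from 338.4 and 344.5 to 277.9 and 299.4 (−0.24, SE 0.07). The 3 genes for the c subunit, whose mature proteins are the same, moved apart. ATP5MC1 fell from 77.5 and 82.5 to 64.2 and 64.4 normalised CPM (log2 fold change −0.31, SE 0.08), ATP5MC2 rose from 112.8 and 118.7 to 136.0 and 149.4 (0.30, SE 0.08), and ATP5MC3 had −0.13 (SE 0.07, edgeR adjusted p = 0.21). In each of the called pair the libraries of the groups did not overlap. The inhibitor ATP5IF1 had −0.19 (SE 0.08) and was not called.

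Of the 13 mitochondrial genes 4 rose and 0 fell, 30.8% and 0% against 17.6% and 17.4% of all genes tested. MT-CYB had 5695 and 5606 normalised CPM in control and 6980 and 7769 in MYCL libraries, a log2 fold change of 0.38 (SE 0.07, edgeR adjusted p = 0.0034). MT-ND3 had 1228 and 1211 against 1498 and 1635 (0.36, SE 0.07), MT-ND2 5818 and 5585 against 7073 and 7509 (0.35, SE 0.07), and MT-CO1 21774 and 22097 against 26301 and 27750 (0.30, SE 0.06). In all 4 both MYCL libraries lay above both controls, which adds little, since these genes were picked for being called higher. Over all 13 genes this held for 6 (46.2%), against 34.5% of all genes tested. The other 9 lay between −0.11 for MT-ND5 and 0.20 for MT-ATP8, and none reached a log2 fold of 0.5. Between them were MT-ND1 (0.08), MT-ND4 (0.06), MT-ND4L (0.04), MT-ND6 (−0.08), MT-CO2 (−0.03), MT-CO3 (0.12) and MT-ATP6 (0.10). On log2(TPM + 1) with limma the mitochondrial calls were 2 higher (MT-CYB and MT-ND2) and 2 lower, and with each library centred 1 higher (MT-CYB). With the length trend removed they were 4 higher and 1 lower. Leaving out C4-2B control replicate 2 gave 1 mitochondrial call, leaving out MYCL replicate 1 gave 8, all higher, and leaving out MYCL replicate 2 gave 4 higher and 2 lower.

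The second comparison asked the same of NCI-H660 cells with shMYCL against shCtrl, where calls were more frequent among mitochondrial genes than among nuclear subunits. Of the 13 mitochondrial genes 5 rose and 0 fell, while of the 77 nuclear subunits 1 rose and 6 fell. Of the 16980 genes tested 12% were called higher and 12.7% lower, against 38.5% and 0% of the mitochondrial genes and 1.30% and 7.79% of the nuclear subunits. Both shares of the nuclear subunits were below those of all genes. The median log2 fold change was 0.24 for the mitochondrial genes, −0.07 for the nuclear subunits and −0.003 for all genes. With the length trend removed these medians were 0.372, 0.012 and 0.011. There 7 mitochondrial genes were called higher and 0 lower, and 4 nuclear subunits higher and 5 lower. At a log2 fold of at least 0.5 as well, no mitochondrial gene was called and 0 nuclear subunits were higher and 2 lower, against 7.18% and 8.99% of all genes. Both shMYCL libraries lay above both shCtrl libraries for 11 of the 13 mitochondrial genes, 8 of the 77 nuclear subunits and 31.1% of all genes. On log2(TPM + 1) with limma, no mitochondrial gene was called, with or without centring, although the centred median of 0.22 was close to that of the counts.

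MT-CO2, the subunit of complex IV that takes electrons from cytochrome c, had 2224 and 1919 normalised CPM with shCtrl and 3075 and 2587 with shMYCL, a log2 fold change of 0.45 (SE 0.12, edgeR adjusted p = 0.011). MT-ND3 had 887.8 and 834.6 against 1202 and 1039 (0.38, SE 0.11). MT-ATP6, the proton channel subunit of ATP synthase, had 1667 and 1497 against 2033 and 2086 (0.38, SE 0.11). For each of these the lower shMYCL library was above the higher shCtrl library. MT-CYB had 1744 and 1610 against 2008 and 2186 (0.32, SE 0.11) and MT-CO3 2376 and 2300 against 3046 and 2800 (0.32, SE 0.11). MT-ATP8 had the highest estimate, 0.60, but an SE of 0.28, with 87.1 and 207.9 against 158.5 and 287.7 normalised CPM, so its groups overlapped. The others were MT-ND4L (0.24), MT-CO1 (0.20), MT-ND2 (0.16), MT-ND4 and MT-ND6 (0.14 each), MT-ND1 (0.06) and MT-ND5 (−0.02).

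The 6 nuclear subunits that fell came from 4 complexes. NDUFC1, a small complex I subunit, had 11.1 and 12.2 normalised CPM with shCtrl and 7.29 and 6.25 with shMYCL, a log2 fold change of −0.79 (SE 0.19, edgeR adjusted p = 0.0061). ATP5PF, of the ATP synthase peripheral stalk, had 60.02 and 62.83 against 41.6 and 44.9 (−0.51, SE 0.11). COX7C had 109.6 and 107.6 against 86.7 and 75.0 (−0.43, SE 0.11). In each the shMYCL libraries lay below both controls. NDUFB4, a supernumerary complex I subunit, had a log2 fold change of −0.37 (SE 0.12), and SDHA, the flavoprotein of complex II, one of −0.33 (SE 0.11). NDUFB9, another supernumerary subunit, was the 1 that rose, from 203.8 and 212.6 to 266.6 and 251.8 (0.32, SE 0.10). Of the rest of complex II, SDHB, SDHC and SDHD had 0.02, −0.14 and −0.17, and no complex III subunit was called. The c-subunit genes had −0.30 (ATP5MC1), −0.05 (ATP5MC2) and −0.14 (ATP5MC3), with SEs from 0.11 to 0.14, and ATP5IF1 had −0.26 (SE 0.11), none of them called. These counts moved with single libraries: without shCtrl replicate 1 the nuclear calls were 0 higher and 11 lower, and without shMYCL replicate 2 they were 0 and 1.

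**Figure D3:**
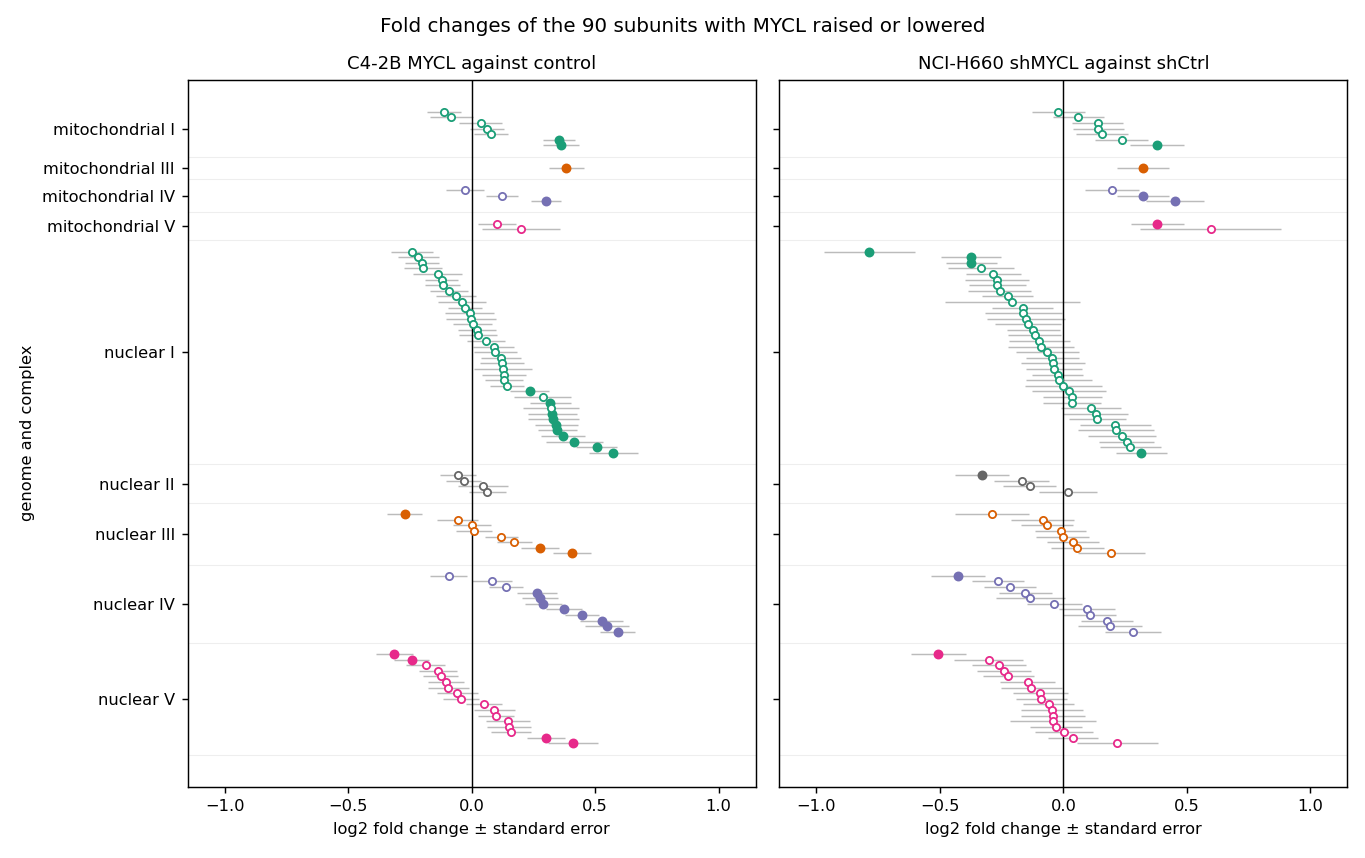
Log2 fold change with its standard error for each of the 90 subunits, grouped by genome and complex, in C4-2B MYCL against control (left) and NCI-H660 shMYCL against shCtrl (right). Filled points passed the adjusted p threshold of edgeR, and the nuclear complex IV points on the left and the mitochondrial points on the right lie mostly above 0.

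Only a few members were called in both comparisons, which share no libraries. COX7C was higher with added MYCL (0.28, SE 0.07) and lower with MYCL depleted (−0.43, SE 0.11), and it was the 1 nuclear subunit called on the side of MYCL in both lines. Its call was lost in 2 of the 4 fits that left out a library in C4-2B and in 1 of 4 in NCI-H660. MT-CYB (0.38 and 0.32) and MT-ND3 (0.36 and 0.38) were called higher in both, that is, with MYCL raised in one line and lowered in the other. The call of MT-CYB was lost in 0 of 4 such fits in C4-2B and 2 of 4 in NCI-H660, and that of MT-ND3 in 2 and 1. By sign alone, 10 of the 13 mitochondrial genes were positive in both comparisons and 1 negative in both. Of the 77 nuclear subunits 19 were positive in both, 22 negative in both, 31 on the side of MYCL in both and 5 against it in both. The shares of all genes with these signs, or called in both comparisons, were not worked out. These counts are therefore descriptions of the members only.

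Whether MYCL-high against MYCL-low cells differed by another amount in each line was tested with an interaction term over 19605 genes. Of these, 20.2% were called, 10.6% positive and 9.63% negative. A positive value is a higher signed log2 fold change of MYCL-high over MYCL-low cells in C4-2B than in NCI-H660. It need not be larger in size: MT-ND3 was higher with MYCL raised (0.36) and with MYCL depleted (0.38). Of the mitochondrial genes 6 were positive and 0 negative: MT-ND3 (0.74, SE 0.13), MT-CYB (0.70, SE 0.12), MT-ND2 (0.51, SE 0.12), MT-CO1 (0.49, SE 0.12), MT-ATP6 (0.48, SE 0.13) and MT-CO3 (0.44, SE 0.11). Of the nuclear subunits 8 were positive and 7 negative. The highest was NDUFA4 (0.66, SE 0.14), followed by COX6A1 (0.64, SE 0.15), and the lowest NDUFC1 (−0.80, SE 0.19) and ATP5PF (−0.65, SE 0.13). Complex IV had 4 positive and 0 negative among its 11 nuclear subunits. On log2(TPM + 1), 1 mitochondrial gene was called, with or without centring.

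The third comparison set NCI-H660 shCtrl against C4-2B control, and nearly every subunit was lower in NCI-H660. All 13 mitochondrial genes and 72 of the 77 nuclear subunits were called lower and 1 nuclear subunit higher, where 38.2% of the 18748 genes tested were lower and 41.4% higher. The median log2 fold change was −1.57 for the mitochondrial genes, −1.14 for the nuclear subunits and 0.04 for all genes. TPM moved the median of all genes to 0.568, and there 12 mitochondrial genes and 56 nuclear subunits were lower and 10 nuclear subunits higher. Centred on each library's median, chosen after seeing the data, 13 and 74 were lower and 1 higher, and with the length trend removed 12 and 53 were lower and 1 and 8 higher. This comparison shares its control libraries with the other 2, and the lines also differ in vector.

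ATP5MK showed the largest drop among the nuclear subunits in this test, from 1676 and 1824 TPM in C4-2B control to 374 and 347 in shCtrl, a log2 fold change in counts of −2.89 (SE 0.09, edgeR adjusted p = 1.3e-10). UQCR10, a small complex III subunit, went from 248 and 247 to 64.5 and 65.3 TPM (−2.59, SE 0.10), and NDUFB10, a complex I subunit, from 349 and 347 to 100.2 and 98.7 TPM (−2.43, SE 0.10). In complex IV the lowest was COX4I1, the ubiquitous form of subunit 4, from 680 and 679 to 258 and 256 TPM (−2.02, SE 0.09). COX7A2 was the exception, with 874 and 849 TPM in C4-2B control and 1724 and 1829 in shCtrl, and a log2 fold change in counts of 0.40 (SE 0.10). The subunits that were not called were NDUFS1 (−0.07), SDHA (−0.08), COX6C (−0.15) and ATP5MC2 (−0.02), with SEs of 0.08 and 0.09.

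The c-subunit genes differed again between themselves. ATP5MC1 (−1.91, SE 0.12) and ATP5MC3 (−1.88, SE 0.09) were lower in NCI-H660, while ATP5MC2 had 360.0 and 392.1 TPM in C4-2B control and 596 and 550 in shCtrl, so that in TPM it was the highest of the 3 in NCI-H660 by a wide margin. In complex II, SDHD (−1.87, SE 0.09), SDHC (−1.22, SE 0.09) and SDHB (−0.83, SE 0.09) were lower and SDHA had −0.08 (SE 0.09). Among the mitochondrial genes the drop ran from −2.05 (SE 0.08) for MT-CO1 and −2.02 (SE 0.10) for MT-ND4L to −0.67 (SE 0.08) for MT-ND3, which in TPM had 17298 and 18260 in C4-2B control and 18689 and 15619 in shCtrl and overlapped. MT-ND5 (−0.96), MT-ND2 (−1.02) and MT-ND1 (−1.04) were also lower by less than MT-CYB (−1.92), MT-ATP8 (−1.91), MT-CO3 (−1.87), MT-ND4 (−1.81) and MT-CO2 (−1.57). MT-ATP6 (−1.31) and MT-ND6 (−1.17) lay between.

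**Figure D4:**
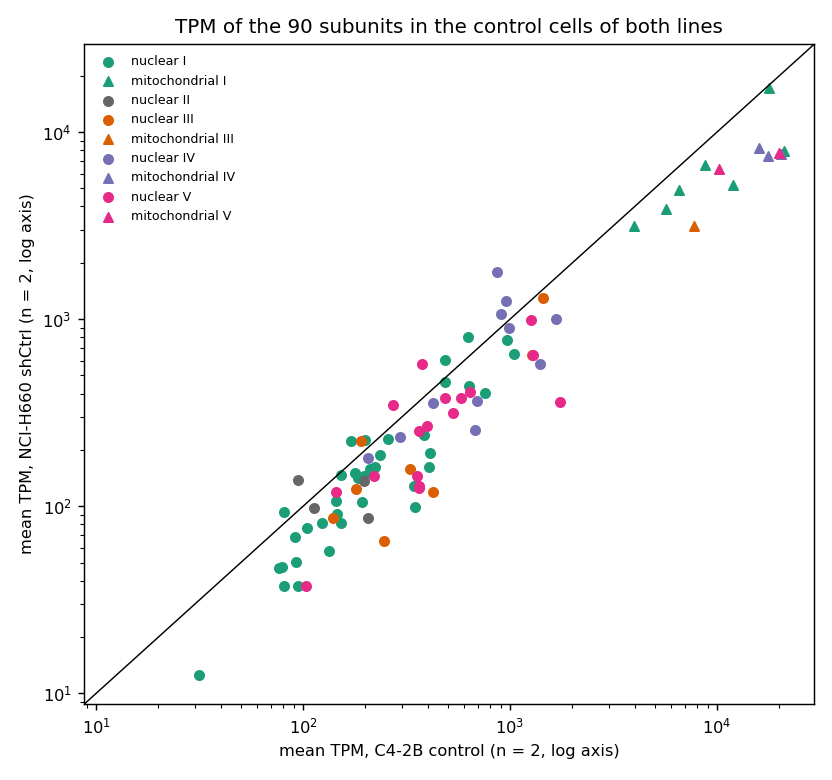
Mean TPM (n = 2, log axes) of each of the 90 subunits in NCI-H660 shCtrl against C4-2B control, with the line of equality. Most points lie below the line, COX7A2 lies above it at 1777 TPM in NCI-H660, and the triangles at the top right are the mitochondrial genes.

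Some subunits and isoforms lie outside the list of names. NDUFA4L2, a homolog of NDUFA4 that is known as a hypoxia-induced gene, had 37 and 21 counts in C4-2B control and 90 and 95 in MYCL libraries, a log2 fold change of 2.33 (SE 0.30). In NCI-H660 it had 151 and 213 counts with shCtrl and 66 and 71 with shMYCL (−1.20, SE 0.21), so that it was called on the side of MYCL in both lines. COX7A2L, which is known for joining complexes III and IV into a supercomplex, had 0.46 (SE 0.07) and −0.32 (SE 0.10) and was likewise called in both. CYC1, the cytochrome c1 of complex III, had 0.35 (SE 0.08) in C4-2B and −0.06 (SE 0.11) in NCI-H660. The lung, muscle and testis forms COX4I2, COX7A1 and COX8C had 0 counts in all 8 libraries, which allows up to 3 counts in each, and COX6A2 and COX6B2 had at most 5 counts.

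Other genes of the same machinery were taken from lists compiled from general knowledge, and their counts are read against the shares of all genes tested, 17.6% higher and 17.4% lower in C4-2B MYCL cells and 12% and 12.7% in NCI-H660 shMYCL cells. Of 16 complex I assembly factors 2 rose and 5 fell in C4-2B MYCL cells, 12.5% and 31.2% of the list, including NDUFAF4 (−0.65, SE 0.11) and NDUFAF5 (−0.61, SE 0.12), with a median of −0.17. Of 40 assembly factors of complexes II to V, 6 rose and 9 fell (15% and 22.5%), led by SDHAF4, which helps load SDHA with its partner (0.79, SE 0.17), and COA7 (−0.73, SE 0.08). In NCI-H660 the same lists had 2 higher and 1 lower of 16, and 2 higher and 6 lower of 40, with SDHAF4 at −1.49 (SE 0.19). These counts are 12.5% and 6.25% of the first list and 5% and 15% of the second. Of 31 genes of mitochondrial DNA replication, transcription and RNA processing, 1 rose and 21 fell (67.7%) in C4-2B MYCL cells, with a median of −0.33. Those that fell most were TRMT10C, of mitochondrial RNase P (−0.82, SE 0.08), TFAM, which packages mitochondrial DNA and starts its transcription (−0.75, SE 0.07), and MTERF1 (−0.71, SE 0.12), and TFB1M rose (0.58, SE 0.12). In NCI-H660 shMYCL cells 1 of the 31 rose and 1 fell (3.23% each), and 12 of the 31 (38.7%) had a called interaction, all negative, against 9.63% of all genes. Between the lines 13 of the 16, 29 of the 40 and 25 of the 31 were lower in NCI-H660 shCtrl than in C4-2B control, or 81.2%, 72.5% and 80.6%, against 38.2% of all genes and 93.5% of the nuclear subunits.

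Of 8 nuclear regulators of respiratory genes, 4 fell (50%) and 0 rose in C4-2B MYCL cells: PPARGC1B (−0.79, SE 0.12), PPRC1 (−0.46, SE 0.10), GABPB1 (−0.41, SE 0.11) and ESRRA (−0.29, SE 0.08). In NCI-H660 shMYCL cells GABPB1 (0.74, SE 0.11) and PPRC1 (0.64, SE 0.12) rose and PPARGC1B (−0.67, SE 0.20) fell, 25.0% and 12.5% of the 8. Of the genes of pyruvate entry and the TCA cycle, 5 of 24 rose and 6 fell in C4-2B (20.8% and 25.0%), among them PDK1, the kinase that shuts pyruvate dehydrogenase (0.70, SE 0.08), and DLAT, a subunit of that enzyme (−0.50, SE 0.07). In NCI-H660 2 of 25 rose and 2 fell (8% each), among them PDK4 (1.67, SE 0.16) and the pyruvate carrier MPC1 (−0.81, SE 0.14). Of 24 electron carriers, quinone enzymes and nucleotide exchangers, 4 rose and 7 fell in C4-2B (16.7% and 29.2%) and 2 rose and 2 fell in NCI-H660 (8.33% each), the lowest in C4-2B being PDSS1, of ubiquinone synthesis (−0.79, SE 0.11). Between the lines 22 of these 24 (91.7%) and 18 of the 25 TCA genes (72.0%) were lower in NCI-H660.

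Promoter sequences were read for the 77 nuclear subunits. Between the lines 72 of them were called lower and 1 higher, and in C4-2B MYCL cells 22 higher and 3 lower. The RefSeq table (GRCh38.p14) held a window of 250 bases before and 50 after the start for 64 of the 77. The GABP letters CCGGAAG, on either strand, were found in 20 of the 64 (31.2%) and in 10.7% of all 27305 promoters. The 10-base NRF1 motif was in 15 (23.4%) against 6.28%, the letters AAGATGGC of YY1 in 11 (17.2%) against 3.03%, and the E-box CACGTG in 7 (10.9%) against 7.43%. These are descriptions with no test, and a GABP and a YY1 match can share the letters AAG. Of 9 complex IV promoters 5 held the GABP letters and 0 held an E-box, NRF1 or YY1 match, and the 7 with an E-box were ATP5MC1 and ATP5PB, which fell in C4-2B MYCL cells, NDUFA7, NDUFS7 and UQCR11, which rose, and ATP5ME and NDUFA11, which were not called. The 3 complex IV promoters below are shown because the whole 250 bases before the start lie outside every exon of GENCODE 44 and hold the GABP letters, in capitals on the strand of the gene or as their reverse complement. COX5B (chr2:97645812-97646061, plus strand) and COX8A (chr11:63974370-63974619, plus strand) rose in C4-2B MYCL cells, and COX6B1 (chr19:35648073-35648322, plus strand) was not called.
COX5B: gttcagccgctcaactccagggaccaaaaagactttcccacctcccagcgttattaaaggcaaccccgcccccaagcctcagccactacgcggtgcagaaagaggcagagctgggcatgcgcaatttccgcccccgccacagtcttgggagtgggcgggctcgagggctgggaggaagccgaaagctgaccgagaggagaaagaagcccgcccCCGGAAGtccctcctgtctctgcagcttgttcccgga
COX8A: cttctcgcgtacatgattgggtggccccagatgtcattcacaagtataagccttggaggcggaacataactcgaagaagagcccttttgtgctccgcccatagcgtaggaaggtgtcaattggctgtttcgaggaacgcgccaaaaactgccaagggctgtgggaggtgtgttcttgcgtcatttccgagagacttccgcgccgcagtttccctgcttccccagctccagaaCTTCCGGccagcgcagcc
COX6B1: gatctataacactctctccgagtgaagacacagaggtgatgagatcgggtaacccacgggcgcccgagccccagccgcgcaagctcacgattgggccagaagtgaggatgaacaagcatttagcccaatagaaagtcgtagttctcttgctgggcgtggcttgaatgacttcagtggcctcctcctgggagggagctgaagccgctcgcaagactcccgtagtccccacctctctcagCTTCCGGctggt
In all 3 the GABP letters shown lie within the last 50 bases before the start, in COX5B on the strand of the gene and in COX8A and COX6B1 on the other. The window of COX5B held 2 GABP matches, and the other does not lie wholly within the stretch shown. Of the complex IV genes whose promoters held these letters, COX4I1, COX5B, COX6A1 and COX8A rose and COX6B1 was not called. Of those without them, COX7A2 and COX7C rose and COX5A and COX7B were not called. Whether the match goes with the change was not tested.

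**Figure D5:**
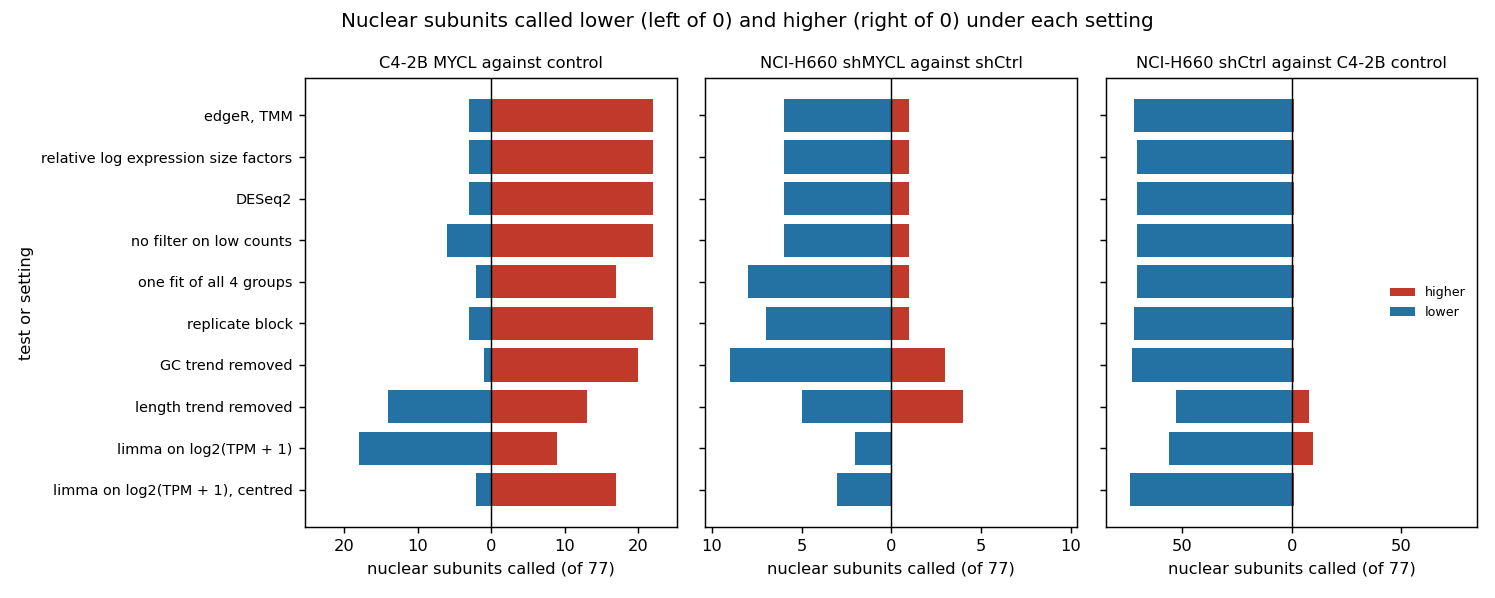
Number of the 77 nuclear subunits called higher (right of 0) and lower (left of 0) under 10 tests or settings, for the 3 comparisons. In C4-2B the other settings gave 17 to 22 higher and 1 to 6 lower, while log2(TPM + 1) gave 9 and 18 and the removal of the length trend 13 and 14.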

How the data were processed

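RNA-seq of 8 libraries in 4 groups of 2 was used. The authors deposited estimated counts per gene, of which 22.41% of the non-zero values lie more than 0.01 from a whole number, and TPM values, which are corrected for gene length and sum to one total per library. The submitters' processing notes name hg38, and the aligner, counter and annotation release are not given in the sources used here. The TPM table holds 65535 of the 78691 genes and all 90 members. No column of another series was found.

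Estimated counts were rounded and tested with edgeR 4.0.16 under R 4.3.3 (TMM, filterByExpr, quasi-likelihood test, Benjamini-Hochberg adjustment over all genes tested, called at an adjusted p under 0.05), each comparison on its own 4 libraries and the interaction on all 8. Standard errors were derived from the fold change and the test statistic. Totals ran from 15177071 to 32344170 counts, and the biological coefficient of variation from 0.0829 to 0.0965. The steps were tested on simulated data. Alternatives were a fit without the low-count filter, DESeq2 1.42.0, size factors by relative log expression, one fit of all 4 groups, a replicate block, limma 3.58.1 on log2(TPM + 1), mitochondrial genes out of library sizes, removal of trends with length or GC content, a log2 fold of at least 0.5 and leaving out each library. Lengths were those implied by counts and TPM (97.85% of the genes tested) and GC content came from the longest GENCODE 44 transcript (96.59%). Python 3.11.15, pandas 2.3.3 and Biopython were used for tables and alignment, and promoters came from RefSeq.

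Named genes were all 13 mitochondrial genes, complex II, the c-subunit genes, NDUFA4, ATP5IF1, members called in both MYCL comparisons, and up to 3 called genes at each end of every other complex and list. Some members and markers are not reported here. Genes outside these were named after their values were seen. Members and lists were chosen with earlier results of these data known. FASTKD4, another name of TBRG4, was not counted a second time, and of the 2 entries of SLC25A6 the more abundant was used.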

Additional observations from a re-analysis of the deposited data

Results flagged for a closer look

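The effect of high against low MYCL differed between the lines, by the interaction term of edgeR's fit of all 4 groups at an adjusted p under 0.05, for 21 of the 90 subunits. A positive value is a higher signed log2 fold change in C4-2B (MYCL against control) than in NCI-H660 (shCtrl against shMYCL), which need not be larger in size. The mitochondrial genes were MT-ND3 (0.738), MT-CYB (0.703), MT-ND2 (0.510), MT-CO1 (0.494), MT-ATP6 (0.480) and MT-CO3 (0.441). The positive nuclear subunits were NDUFA4 (0.655), COX6A1 (0.642), NDUFS7 (0.626), ATP5F1D (0.624), NDUFA13 (0.456), NDUFB9 (0.444), COX4I1 (0.439) and COX7A2 (0.435), and the negative ones given here NDUFC1 (−0.798), ATP5PF (−0.647), ATP5MC1 (−0.620), NDUFB4 (−0.593), NDUFB3 (−0.468) and ATP5IF1 (−0.451). Over all 19605 genes, 20.2% were called in this test. With any 1 library left out, the calls of COX7A2 and NDUFB3 were each lost in 7 of 8 fits and those of COX4I1 and NDUFS7 in 6, whereas MT-CO1 and NDUFC1 were each lost in 1. Over these fits the value ran from 0.63 to 0.795 for MT-CYB, 0.441 to 0.569 for MT-ND2 and 0.621 to 0.829 for MT-ND3. It ran from 0.372 to 0.49 for MT-CO3 and 0.39 to 0.586 for MT-ATP6. For the nuclear subunits ATP5PF, COX6A1 and NDUFA4 it ran from −0.714 to −0.573, 0.491 to 0.788 and 0.517 to 0.765.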

How the results depend on the processing

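Counts are given as nuclear subunits higher, nuclear subunits lower and mitochondrial genes called, which were 22, 3 and 4 in C4-2B, 1, 6 and 5 in NCI-H660 and 1, 72 and 13 between the lines, and 15 nuclear and 6 mitochondrial for the interaction. In C4-2B the lower count was 6 without the filter on low counts and 1 with the GC trend removed, log2(TPM + 1) with limma gave 9 higher and 18 lower, with 2 mitochondrial genes higher and 2 lower, removal of the length trend 13 and 14, and centred TPM values, chosen after seeing the data, 1 mitochondrial call. In NCI-H660 log2(TPM + 1) gave 0, 2 and 0, centred values 0, 3 and 0, and the higher count was 4 with the length trend and 3 with the GC trend removed. Between the lines the higher count was 10 on log2(TPM + 1) and 8 with the length trend removed. For the interaction 1 mitochondrial gene was called on either TPM scale and 7 nuclear subunits on the centred one. A log2 fold of at least 0.5 gave 5, 0 and 0 in C4-2B, 0, 2 and 0 in NCI-H660 and 0 higher between the lines. DESeq2, relative log expression size factors and leaving mitochondrial genes out of library sizes kept every one of these counts within 1.5 times.

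Leaving out 1 library gave 11 to 30, 0 to 9 and 1 to 8 in C4-2B, 0 to 5, 1 to 11 and 3 to 5 in NCI-H660, 0 to 1, 68 to 73 and 13 between the lines, and 6 to 21 nuclear and 4 to 7 mitochondrial for the interaction. A fit left with a lone library in one arm takes its spread from the other. The nuclear calls of C4-2B were 11 higher and 1 lower without control replicate 1, 11 and 0 without control replicate 2, and 17 and 9 without MYCL replicate 2. Those of NCI-H660 were 0 and 11 without shCtrl replicate 1, 5 higher without shCtrl replicate 2, 0 and 3 without shMYCL replicate 1, and 0 and 1 without shMYCL replicate 2, and the only higher call between the lines was lost without C4-2B control replicate 2.

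Replicate numbers are shared only in name, since the deviations of same-numbered libraries correlated by 0.019 to 0.026. The replicate block gave 22, 3 and 4 in C4-2B, 1, 7 and 4 in NCI-H660, 1, 72 and 13 between the lines, and 14 and 6 for the interaction.

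The median of the nuclear subunits turned in C4-2B from 0.092 to −0.023 on log2(TPM + 1) and −0.029 with the length trend removed, and in NCI-H660 from −0.066 to 0.012 with the length trend removed, and that of the mitochondrial genes in C4-2B from 0.102 to −0.043 on log2(TPM + 1). For the interaction the nuclear median of 0.062 was −0.063 on log2(TPM + 1), −0.001 without C4-2B MYCL replicate 2 and −0.022 without shCtrl replicate 1. Among called subunits taken singly, signs turned in the comparison between the lines, under 2 settings. On log2(TPM + 1) the log2 fold changes were UQCRC1 0.222, COX6B1 0.235, ATP5IF1 0.358, NDUFB11 0.383, NDUFB9 0.356, NDUFA11 0.183 and NDUFA13 0.322. With the length trend removed they were NDUFB7 0.031, COX6B1 0.466, ATP5IF1 0.051, NDUFB11 0.494, NDUFB9 0.473, NDUFC2 0.057, UQCRB 0.086, NDUFS4 0.044, NDUFS5 0.017, NDUFA11 0.332, COX8A 0.087, NDUFA13 0.522 and MT-ND3 0.292. The causes were not tested.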

Other observations

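The 2 mitochondrial rRNAs lie outside the subunit names. MT-RNR1, the small-subunit rRNA, had 2794 and 2844 CPM in C4-2B control and 1523 and 1984 in C4-2B MYCL libraries, and 825.1 and 1002 CPM with shCtrl and 573.3 and 401.8 with shMYCL. It was called lower in both comparisons (log2 fold changes −0.65, SE 0.12, and −0.90, SE 0.14, from edgeR's quasi-likelihood test). MT-RNR2, the large-subunit rRNA, had 19345 and 18814 against 19300 and 21251 CPM in C4-2B (0.12, SE 0.08) and 6809 and 6878 against 5826 and 5469 CPM in NCI-H660 (−0.27, SE 0.10), and was not called in either. The libraries were poly(A)-selected, and how much of either rRNA such a selection keeps was not tested.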
